A study of Mus musculus with 24 samples.

Results

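The nuclear genes for the subunits of the 5 oxidative phosphorylation complexes were examined in cerebral cortex and whole blood of mouse neonates. They were chosen by gene symbol and by the type protein coding in the study's gene table (the Nduf, Sdh, Uqcr, Cyc1, Cox and Atp5 names), without use of any count, and came to 85 of 48709 genes. There were 36 genes for complex I, 4 for complex II, 9 for complex III, 20 for complex IV and 16 for complex V. Ndufa4 and its paralog Ndufa4l2 were placed with complex IV, where the Ndufa4 protein is known to sit, and Atp5s, a coupling factor that is not a subunit of the ATP synthase, came in by its name. The labels gave the strain as C57BL/6J and the age as 3 to 5 days, while the methods text named C57BL/6NJ and an age of 5 days. Dams of the nPM group breathed nano-sized particulate matter (nPM), collected beside a Los Angeles freeway and re-aerosolized, for 5 hours on 3 days of each week from gestational day 2 until birth. The concentration was 300 mg/m3 in the labels, and the methods text gave the same figure in micrograms. Control dams breathed filtered air in identical chambers. Each tissue had 12 libraries, 6 nPM and 6 control with 3 of each sex, and the 3 neonates of a sex and exposure came from different litters, while whether females and males shared litters was not given in the sources used here. No mutation or transgene was named in the labels, and the study describes blood and cortex as taken from the same animals, although no label tied a blood library to a cortex library.

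Oxidative phosphorylation passes electrons from NADH through complex I, or from succinate through complex II, to ubiquinone, complex III, cytochrome c and complex IV, where oxygen is reduced. Complexes I, III and IV pump protons across the inner mitochondrial membrane, and complex V, the ATP synthase, uses the gradient to make ATP. Complexes I, III, IV and V each hold subunits from both the nuclear and the mitochondrial genome, whereas complex II is wholly nuclear. Neurons rely on this route for most of their ATP, while mature red cells lose their mitochondria and live on glycolysis. Complex IV also has paralogous subunits that replace one another by tissue, such as the heart and skeletal muscle forms Cox6a2, Cox7a1 and Cox8b and the testis form Cox6b2.

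Many of these genes lie behind promoters rich in sites for NRF1, ETS factors such as GABP, and YY1, the classical regulators of nuclear respiratory genes. RefSeq promoters (GRCm38.p6, from 250 bases before the start to 50 after it) were found for 69 of the 85 genes and searched on both strands by exact letters. The NRF1 letters GCGCATGCG stood in 8 of these genes, 11.6%, against 1.95% of all 27025 genes with a promoter. The YY1 letters AAGATGGC stood in 14.5% against 3.19%, and the ETS letters CCGGAAG in 23.2% against 9.93%. CCAAT was found in 43.5% against 41.1%, and TATAAA in 10.1% against 15.7%. No motif contains another, but matches may overlap, and a match of letters in a window is not a site shown to be bound. Atp5l (a membrane subunit of complex V) and Uqcr11 (a small subunit of complex III) are shown because each held both the NRF1 and the ETS letters, as did Atp5k and Cox6a1. Ndufs5 and Cox7a2 are shown as genes called in female cortex, and Cox6b1 and Cox6b2 as the paralog pair that differed most between the tissues. Each is written 5′ to 3′ along the gene's strand, with matches to any of the 5 motifs in capitals.
Atp5l, chr9:44920693-44920992, reverse strand: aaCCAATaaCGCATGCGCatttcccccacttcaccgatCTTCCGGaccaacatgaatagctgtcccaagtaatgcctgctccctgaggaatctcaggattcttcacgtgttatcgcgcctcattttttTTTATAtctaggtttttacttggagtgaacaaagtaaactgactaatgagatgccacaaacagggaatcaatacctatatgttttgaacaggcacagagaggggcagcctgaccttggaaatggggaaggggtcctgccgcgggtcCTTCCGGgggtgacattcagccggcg
Uqcr11, chr10:80406772-80407071, reverse strand: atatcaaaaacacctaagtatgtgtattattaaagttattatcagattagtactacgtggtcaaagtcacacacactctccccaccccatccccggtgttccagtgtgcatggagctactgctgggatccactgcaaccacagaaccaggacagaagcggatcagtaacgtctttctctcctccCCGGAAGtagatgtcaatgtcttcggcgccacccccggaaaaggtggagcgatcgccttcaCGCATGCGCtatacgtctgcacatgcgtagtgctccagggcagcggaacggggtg
Ndufs5, chr4:123718137-123718436, reverse strand: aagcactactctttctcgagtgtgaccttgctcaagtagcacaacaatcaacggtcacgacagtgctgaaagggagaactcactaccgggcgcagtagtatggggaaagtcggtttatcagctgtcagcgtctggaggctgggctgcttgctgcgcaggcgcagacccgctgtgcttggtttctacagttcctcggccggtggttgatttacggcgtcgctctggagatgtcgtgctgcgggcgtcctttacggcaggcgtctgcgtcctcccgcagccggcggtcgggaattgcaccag
Cox7a2, chr9:79759804-79760103, reverse strand: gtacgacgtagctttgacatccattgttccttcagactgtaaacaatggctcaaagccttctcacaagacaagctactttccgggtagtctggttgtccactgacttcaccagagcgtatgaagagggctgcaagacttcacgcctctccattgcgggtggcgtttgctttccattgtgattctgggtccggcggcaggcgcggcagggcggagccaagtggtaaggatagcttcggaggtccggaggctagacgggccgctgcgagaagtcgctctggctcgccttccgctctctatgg
Cox6b1, chr7:30626065-30626364, reverse strand: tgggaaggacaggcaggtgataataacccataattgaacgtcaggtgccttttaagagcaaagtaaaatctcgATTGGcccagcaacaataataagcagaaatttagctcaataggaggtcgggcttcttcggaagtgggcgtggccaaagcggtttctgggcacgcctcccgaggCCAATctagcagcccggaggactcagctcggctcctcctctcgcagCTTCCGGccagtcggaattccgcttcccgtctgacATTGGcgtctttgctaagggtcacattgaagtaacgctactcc
Cox6b2, chr7:4753045-4753344, reverse strand: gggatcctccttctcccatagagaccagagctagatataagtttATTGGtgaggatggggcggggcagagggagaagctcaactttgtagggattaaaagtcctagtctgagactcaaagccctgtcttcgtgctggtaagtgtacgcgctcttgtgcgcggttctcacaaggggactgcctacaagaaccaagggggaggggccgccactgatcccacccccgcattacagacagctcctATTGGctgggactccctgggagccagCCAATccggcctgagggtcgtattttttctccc
None of the 5 motifs stood in the windows of Ndufs5 and Cox7a2. The Cox6b pair differed in that the window of Cox6b1 held the ETS letters beside CCAAT, and that of Cox6b2 held CCAAT alone.

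The libraries held between 13595647 (blood) and 33804371 (cortex) counts on genes. Of the 85 genes, 83 had at least 1 count in every cortex library and 78 in each of 11 blood libraries. The exceptions were all complex IV paralogs. V2, a female control blood library, stood apart from the others, with 22461 genes detected against 13254 to 17273, 50.1% globin counts against 66.2 to 76.8%, and 0.261% of its counts on the 85 genes against 0.0684 to 0.130%. It was left out of the blood values unless stated. In cortex the markers of projection neurons summed to between 946 and 1165 CPM (counts per 1000000) and in blood the erythroid markers summed to between 695840 and 791473 CPM. Of the 85 genes, 33 overlapped another annotated gene, and strandedness and the handling of reads with several matches were not given in the sources used here, so counts of those genes and of genes with processed copies (6 copies named after 4 of the genes were annotated) are less certain.

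The 85 genes together took 0.923 to 1.07% of all cortex counts. Per kilobase of gene, their median level was 57.3 counts per kilobase per 1000000 counts in cortex (12 libraries) and 1.51 in blood (11 libraries). In bulk tissue, fewer cells of a kind and less RNA per cell cannot be told apart. In cortex the highest level of all belonged to Cox6b1, a subunit on the intermembrane face of complex IV, at 347 (325 to 379). The next complexes were led by Atp5a1, the alpha subunit of the ATP synthase head, at 268, Uqcr11, a small subunit of complex III, at 184, and Ndufb9, an accessory subunit of the complex I membrane arm, at 176. Complex II was led by Sdhd, a membrane anchor, at 78.6, with Sdhc, the other anchor, lowest at 20.6. Levels within a complex therefore spread widely although its subunits enter in fixed proportions. Ndufab1, the mitochondrial acyl carrier protein, was lowest in complex I at 5.38. These levels rest on the gene lengths of the study's table, and with the length of the principal transcript Atp5b, the catalytic beta subunit, led all the genes at 494. Cox6c then led complex IV at 418 and Sdhb complex II at 97.3, and Ndufb2 was lowest in complex I.

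**Figure D1:**
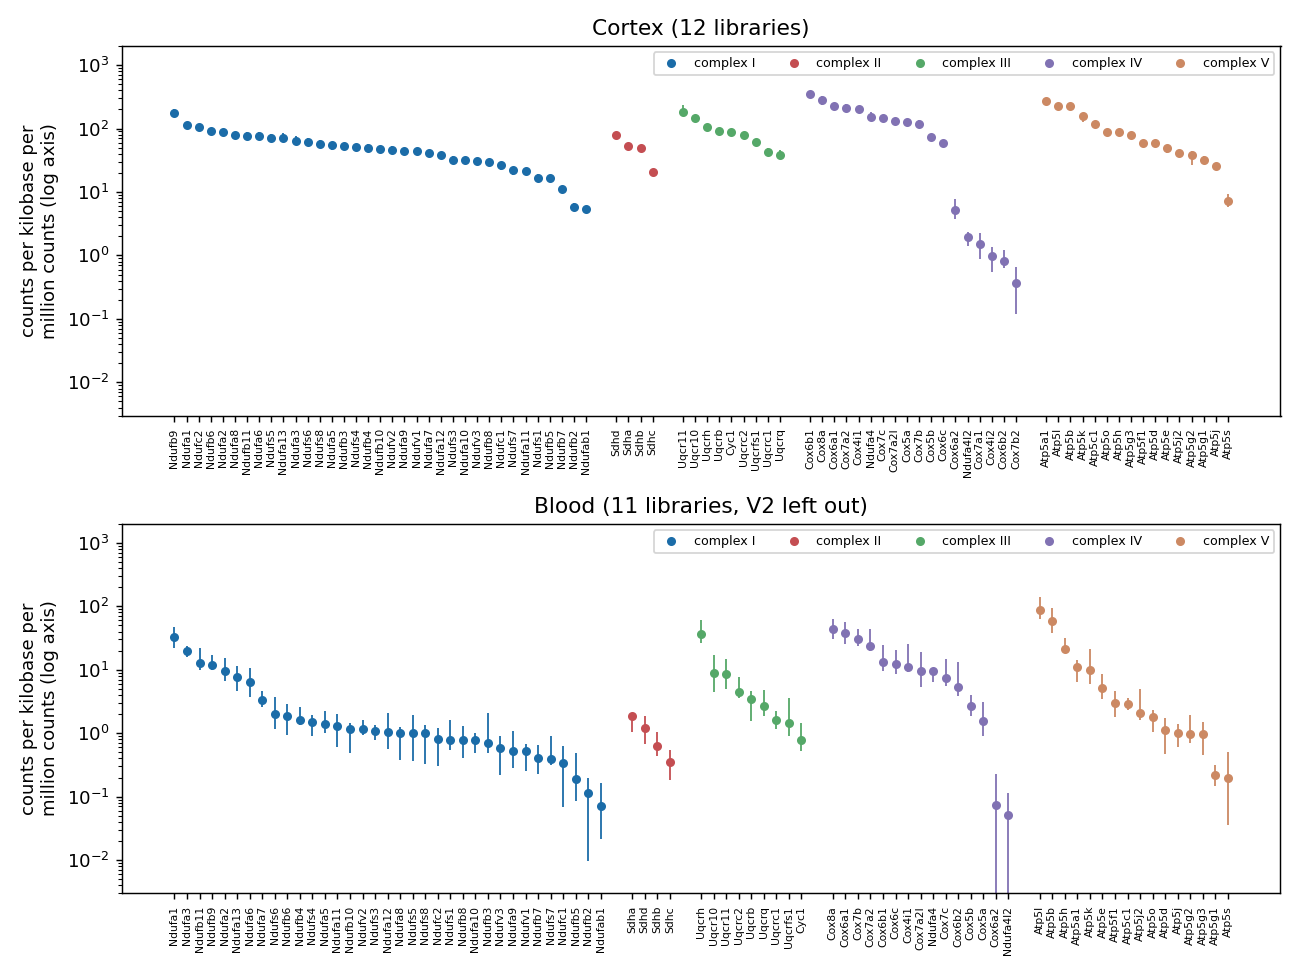
Level of each gene in counts per kilobase per 1000000 counts (log axis) in cortex (12 libraries) and blood (11 libraries, V2 left out), grouped by complex. Points are medians and bars run from the lowest to the highest library, and a bar that meets the lower edge reaches 0. Genes with a median of 0, and 1 gene of complex I that is not reported by name, are not drawn. In cortex the points of complexes I, II, III and V lie between 5.38 and 268, and complex IV holds a group of 6 paralogs at or under 5.14.

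By the same gene lengths the order was different in blood. Atp5l, the g subunit in the membrane part of the ATP synthase, led at 88.5 (62.8 to 141), followed by Atp5b at 59.1 and Cox8a, a small complex IV subunit, at 43.7. Uqcrh, the hinge protein of complex III, stood at 36.9 and Ndufa1, a small subunit of the complex I membrane arm, at 32.2. With the length of the principal transcript Atp5b led in blood as it did in cortex, at 131. Cox6c then led complex IV at 88.5 and Ndufa3 led complex I at 39.6. Cyc1, the cytochrome c1 of complex III, was lowest in its complex at 0.782. Complex II was low throughout, between 0.350 for Sdhc and 1.84 for Sdha, the flavoprotein that oxidizes succinate. Expressed as shares of the summed level of the 85 genes, complex I took 28.9% in cortex (28.3 to 29.5) and 19.9% in blood (18.6 to 21.6). Complex II took 3.08% and 0.511%, complex III 12.7% and 11.1%, complex IV 31.6% and 34.6%, and complex V 23.6% and 33.9%. The ranges of the 12 cortex and 11 blood libraries did not meet for complexes I, II, III and V and met for complex IV. The sizes of these shares moved with the length used, and for complex III the order turned, with 11.8% in cortex and 12.4% in blood under the length of the principal transcript. No test was run on them.

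The comparison of the tissues asked which subunits were relatively higher in each. On the TMM scale, 48 of the 78 genes tested were higher in cortex and 21 lower (edgeR's quasi-likelihood test, adjusted p under 0.05), against 49.4% and 41.4% of all 9602 genes called in those directions. The background was so large because the tissues differ almost everywhere. The median log2 difference, cortex minus blood, was 0.70 over the 78 genes and 0.24 over all genes tested. With at least 10 counts in every library the median of the subunit genes was 1.299. With globin taking most blood counts, the absolute direction depended on the scaling. With library totals in place of TMM factors, 20 of the 21 genes called lower turned higher, and only Cox6b2 was lower in cortex under TMM, RLE, library totals and removal of the globin genes, while 46 genes were higher under all of them. Differences between the genes did not depend on the scaling in this way. The complexes are therefore given below relative to the median of the 78 genes. Shares over all genes are not given here for calls under every scaling.

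Complex II lay highest, at a median of 1.17 log2 above the 78 genes (4 of 4 higher in cortex under every scaling). Complex I lay 0.44 above, with 26 of 36 higher under every scaling. Complex V lay at -0.14, complex III at -0.47 and complex IV at -1.10, where 3 of 13 were higher under every scaling. With library totals the complexes lay at 1.15, 0.44, -0.14, -0.44 and -1.11, in the same order. The counts of genes higher under every scaling have no share over all genes beside them.

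On the TMM scale, the genes most shifted to cortex included Atp5g1, which encodes the c-ring protein of the ATP synthase, with a log2 difference of 3.07 (SE 0.095, edgeR's adjusted p = 2.8e-22). Its level was 31.9 in cortex (29.2 to 36.3) and 0.220 in blood (0.148 to 0.312). Ndufc2, in the complex I membrane arm, stood at 106 in cortex (91.7 to 117) and 0.819 in blood (0.309 to 1.21), a log2 difference of 3.05. Every cortex library exceeded every blood library for both. These levels are scaled by library totals and not by TMM. With library totals the log2 differences were 7.13 for Atp5g1 and 7.10 for Ndufc2. The electron-carrying subunits Cyc1 (2.45), Ndufv1 (2.36), which holds the flavin that takes electrons from NADH, and Sdhb (2.11), the iron-sulfur subunit of complex II, followed, along with Cox5a (2.12), Ndufa8 (2.41), Atp5g3 (2.36), Ndufb5 (2.14) and Sdhd (1.94). At the other end, after Cox6b2, stood Atp5l (-2.84), Uqcrh (-2.57), the complex I membrane arm subunits Ndufa3 (-2.42), Ndufa1 (-2.32) and Ndufb11 (-1.55), Atp5h (-2.24) of the peripheral stalk, Atp5b (-2.21), and the complex IV subunits Cox7b (-2.22) and Cox6c (-2.06). All 9 had positive differences with library totals, from 1.26 for Atp5l to 2.54 for Ndufb11.

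Cox6b2 was unlike its complex. Its protein is known as the testis form of the subunit that Cox6b1 supplies elsewhere. Its counts ran from 23 to 35 in the cortex libraries and from 81 to 300 in the blood libraries. Its level was 0.804 in cortex (0.626 to 1.21) and 5.38 in blood (3.92 to 13.3), the only gene of the 85 with a higher median level in blood. The log2 difference was -7.08 (SE 0.22, edgeR's adjusted p = 2.61e-22) on the TMM scale and -2.97 with library totals. In V2 the level was 4.26. No annotated gene overlapped Cox6b2, and Fam71e2, its nearest neighbour 132 bases away on the same strand, had a median of 0 CPM in both tissues. Cox6b2 made up 0.230% of the Cox6b pair in cortex (0.165 to 0.359) and 31.2% in blood (24.5 to 44.5), and the libraries did not overlap.

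The other tissue-restricted paralogs took small shares in both tissues. Cox6a2, the muscle form of Cox6a1, made up 2.23% of its pair in cortex (1.56 to 3.09) and 0.132% in blood (0 to 0.880). Cox4i2, a form known from lung and induced at low oxygen, made up 0.456% in cortex (0.281 to 0.677) and had no count in any of the 11 blood libraries. Cox7b2, a testis form, made up 0.322% in cortex (0.109 to 0.528) and likewise had no count in those blood libraries. Cox7a1 made up 0.439% of the Cox7a set in cortex and 0% in the median blood library, with its counts in 1 of them. Ndufa4l2, which is known to replace Ndufa4 at low oxygen, made up 1.22% in cortex (0.840 to 1.43) and 0.524% in blood (0 to 1.57). Cox8c, another testis form, had no count in any of the 24 libraries, which allows at most 0.0887 to 0.221 CPM per library by counting error alone, and Cox8b had a median share of 0% in both tissues and reached at most 0.0974% of its set in cortex and 0.757% in blood. Cox7a2l, known as a supercomplex factor, whose protein was not examined here, stood at 38.7% in cortex (37.0 to 41.7) and 29.4% in blood (12.05 to 45.4), with overlapping libraries. None of these shares was tested.

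The 3 Atp5g genes encode the same mature c-ring protein behind different import sequences. In cortex Atp5g3 made up 52.8%, Atp5g2 25.0% and Atp5g1 21.2% of their summed level. In blood the values were 44.6%, 47.0% and 10.04%. The tissues did not overlap for Atp5g1 (19.99 to 23.1 against 8.48 to 15.6) or Atp5g2 (19.6 to 27.7 against 35.5 to 56.7), and met for Atp5g3. With plain counts Atp5g1 took 39.6% in cortex, above Atp5g2 at 15.7%, and 22.4% in blood. Under the length of the principal transcript Atp5g1 took 9.08% and 4.25%, and in blood Atp5g3, at 53.9%, stood above Atp5g2, at 42.6%. The share of Atp5g1 was lower in blood than in cortex on each of these scales. No paralog share was separated by exposure in either tissue. The Cox6b2 share, for example, was 0.220 to 0.359% in nPM and 0.165 to 0.310% in control cortex, and 24.5 to 44.5% in nPM and 24.8 to 42.3% in control blood. The shares of the 5 complexes overlapped between exposures as well, with complex I at 28.6 to 29.5% in nPM and 28.3 to 29.2% in control cortex.

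**Figure D2:**
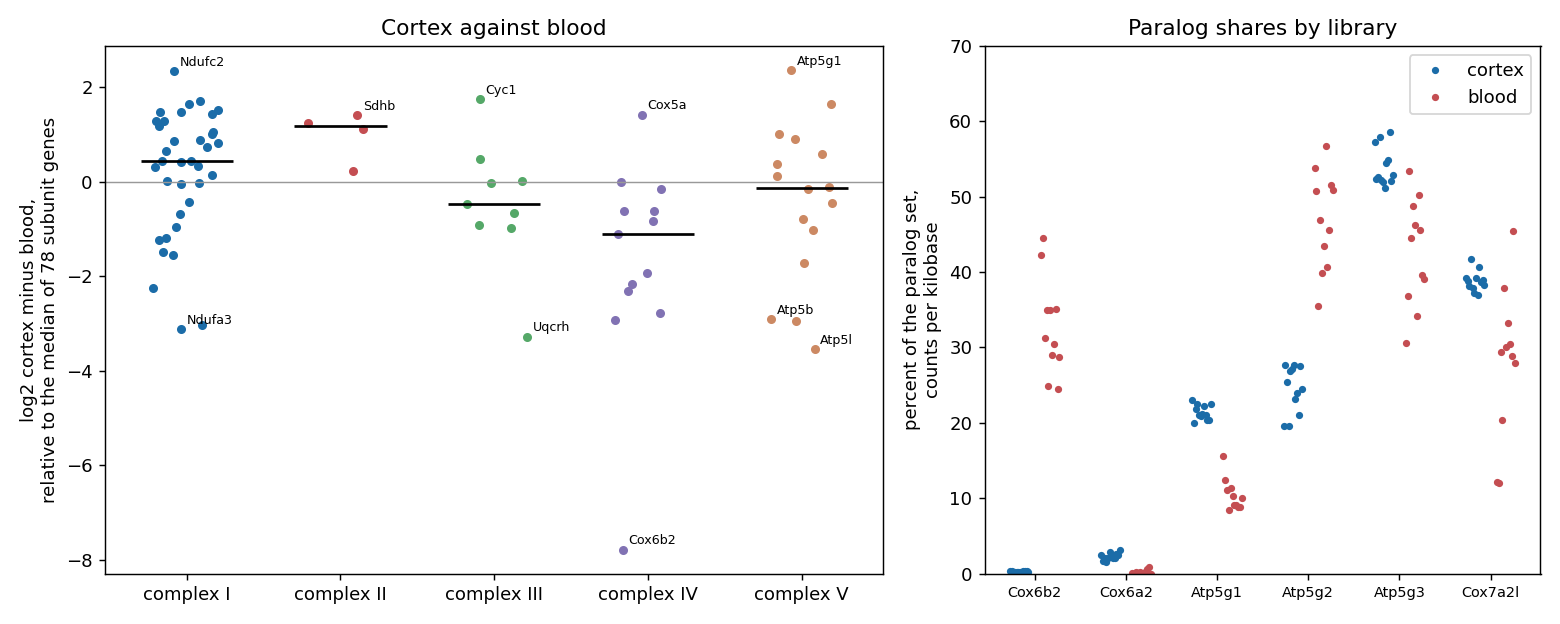
Left, log2 difference of cortex minus blood for each of the 78 genes tested, relative to their median, by complex, with black lines at the complex medians. Right, share of a paralog set taken by 6 of its genes, in percent of counts per kilobase, 1 point per library (12 cortex, 11 blood). Cox6b2 lies at -7.79 and takes 24.5 to 44.5% of its pair in blood against at most 0.359% in cortex.

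The main question of the study was what gestational nPM did to expression in each tissue. In cortex with both sexes fitted together, none of the 83 genes tested reached an adjusted p under 0.05 (edgeR's quasi-likelihood test) against 0.0144% of all 20857 genes, and none had an unadjusted p under 0.05 against 5.67%. The lowest adjusted p was 0.873, and limma voom and DESeq2 called none either. The fold changes were small, with a median log2 value of 0.025 over the genes and -0.0024 over all genes, and 70 of the 83 were above 0. With TEC percent (the percent of counts on unconfirmed gene models of the type TEC) as a covariate the median was -0.024. The largest evidence for higher values was for Ndufa5, a subunit of the arm of complex I that meets ubiquinone, with 46.6, 53.5 and 64.8 TMM-scaled CPM as the lowest, median and highest of 6 control libraries and 56.1, 57.7 and 61.2 of 6 nPM libraries. The nPM libraries lay within the control range. Ndufs5 and Ndufs7 were next, and Cox8a, Uqcrq and Cox6a1 were the leading genes with lower values.

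The same was found in blood, where 0 of 78 genes reached an adjusted p under 0.05 (edgeR), as did 0% of all 9977 genes. At an unadjusted p under 0.05 there were 2 genes, or 2.56% against 3.11% of all genes, and DESeq2 and limma voom called none. Both belong to the NADH-oxidizing tip of complex I. Ndufv3 stood at 0.707, 0.785 and 1.71 CPM in the lowest, median and highest of 5 controls and at 1.18, 1.58 and 2.29 in 6 nPM libraries, a log2 fold change of 0.61 (SE 0.28, edgeR's adjusted p = 1). Ndufs4 stood at 2.10, 2.43 and 3.61 in controls and 1.42, 1.91 and 2.51 in nPM libraries, a log2 fold change of -0.51 (SE 0.24, edgeR's adjusted p = 1). The groups overlapped for both. The median log2 fold change of the 78 genes was 0.0012, and it ran from -0.11 without V4 to 0.12 without V6, both controls. With V2 kept it was 0.07, and no gene was called.

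Fitted by sex, the cortex values went in opposite directions. In females 77 of 83 genes had higher values in nPM libraries, with a median log2 fold change of 0.12 (all genes -0.0022). By edgeR's test 3 genes rose at an adjusted p under 0.05 and none fell, 3.61% of the genes against 0.216% of all 21731 genes called higher. At an unadjusted p under 0.005 there were 13, all higher, 15.7% against 1.19%. Every nPM female lay above every control female for 50 genes, 60.2% against 10.1% of all genes. The direction was shared by the complexes, with 35 of 36 genes of complex I, 4 of 4 of complex II, 8 of 9 of complex III, 16 of 18 of complex IV and 14 of 16 of complex V higher, and complex medians between 0.10 and 0.13. The complexes shifted together within a library, as in control female V12, where they lay from -0.11 to -0.085 relative to the cortex mean. The genes are therefore not independent, and their counts here and in the fits below rest on few libraries.

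Ndufa5 stood at 48.5, 50.1 and 46.6 TMM-scaled CPM in control females V10, V12 and V19 and at 57.9, 61.2 and 59.3 in nPM females V9, V11 and V20. Its log2 fold change was 0.29 (SE 0.055, edgeR's adjusted p = 0.0277). The 3 control females were the lowest of the 12 cortex libraries for this gene, and 5 of the 6 males lay between the control and the nPM females (56.1 to 57.8), with V24 above all at 64.8. Ndufs5, a subunit at the intermembrane face of complex I, stood at 51.0, 52.3 and 56.6 in the same controls and 65.4, 63.4 and 66.3 in the same nPM females. Its log2 fold change was 0.28 (SE 0.055, edgeR's adjusted p = 0.0351). The groups did not overlap, but the males of both exposures ran from 53.8 to 72.7 and overlapped both female groups. Cox7a2, the general form of a complex IV subunit, stood at 133, 136 and 136 in controls and 155, 162 and 154 in nPM females. Its log2 fold change was 0.20 (SE 0.043, edgeR's adjusted p = 0.0451), and again the control females were the 3 lowest of the 12 libraries.

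The other 10 genes with an unadjusted p under 0.005 were Atp5e and Atp5h of the ATP synthase stalks, Atp5o, which joins the peripheral stalk to the head, and Atp5j2 of its membrane part. From complex III they were Uqcrb, Uqcr10 and Uqcr11, and from complex I Ndufs7, which carries the last iron-sulfur cluster before ubiquinone, with Ndufc1 and Ndufb8 of the membrane arm. Their log2 fold changes ran from 0.15 to 0.23 and their adjusted p-values from 0.0676 to 0.122 by edgeR. Cox8a had the lowest value, -0.19 (SE 0.063, edgeR's adjusted p = 0.185), with all 3 nPM females (138 to 146 CPM) under all 3 controls (147 to 177).

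**Figure D3:**
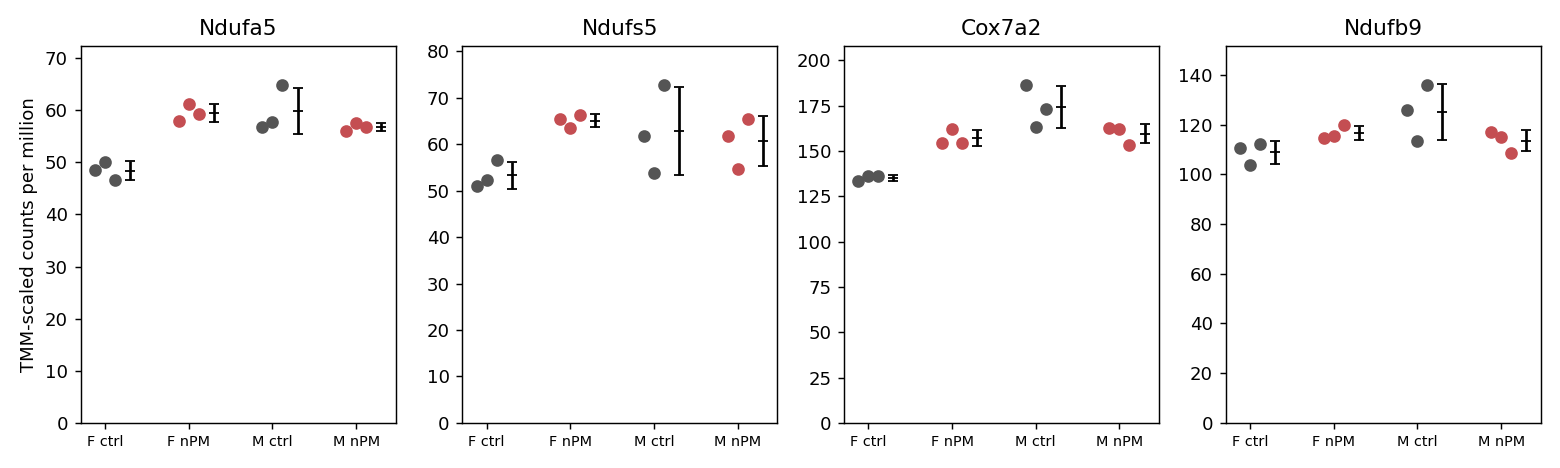
TMM-scaled CPM in the 12 cortex libraries for the 3 genes called in females (Ndufa5, Ndufs5, Cox7a2) and for Ndufb9, by sex (F, M) and exposure (ctrl, control). Points are libraries and bars the mean ± SD of 3. Control females lie under nPM females in the first 3 panels.

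The number of calls depended on the libraries and the filter. With genes of at least 1 count in any library kept, 13 genes were called, 12 higher and 1 lower, while DESeq2 called 4 and limma voom 2. Shares over all genes are not given here for these altered fits, so their counts have no background beside them. Leaving out V10, V11, V12, V19 or V20 in turn left no gene at an adjusted p under 0.05, and without V9 there were 3. These included Ndufa5 and Cox7a2 but not Ndufs5, whose lowest adjusted p with 1 library left out was 0.0507 by edgeR. The 13 genes at an unadjusted p under 0.005 became 7 without V9, 8 without V10, 4 without V11, 5 without V12, 6 without V19 and 8 without V20 (1 further gene lower without V10 or V20), while the median stayed between 0.11 and 0.14. The percent of counts on genes of the annotation type TEC, mostly models of a single exon that still await experimental evidence, moved with the groups. It was 0.369 to 0.406% in control females and 0.273 to 0.294% in nPM females, without overlap. With TEC percent as a covariate no gene was called, the value of Ndufa5 was -0.10 and the median was 0.16. Because TEC percent split the female groups as exposure did, that fit separates the 2 poorly. The part of TEC genes in the result was not tested. The nPM females were also higher in 7 of 7 choroid plexus markers (median log2 fold change 0.23, summed level 387 to 513 CPM against 338 to 397 in control females, no marker at 0 in any of them), and the summed projection neuron markers were lower (986 to 1018 CPM against 1052 to 1093, without overlap), with 6 of 9 markers lower, a median of -0.08, none called and no marker at 0 in a female cortex library. Of 8 markers of astrocytes and radial glia 7 were higher (median 0.04), with Fabp7 called by edgeR (0.36, adjusted p = 0.0292), named after its value was seen. The remaining marker, Slc1a2, was lower (-0.32, edgeR's adjusted p = 0.145). The summed level of this list was 2258 to 2518 CPM in nPM females against 2328 to 2660 in control females, with overlap. The part of these lists in the result was not tested. By sequencing lane, the subunit genes' median level was 0.13 higher in nPM females on lane 2 (2 against 2) and 0.08 higher on lane 3 (1 against 1).

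In males 80 of 83 genes had lower values in nPM libraries, with a median log2 fold change of -0.12 (all genes 0.0032). None had an adjusted p under 0.05 by edgeR, as did 0% of all 21670 genes, and limma voom and DESeq2 called none. At an unadjusted p under 0.05 there were 14 genes, all lower, 16.9% against 2.03%. Only 3 genes, Cox7a2, Uqcrb and Ndufs6, had every nPM male under every control male, 3.61% against 4.88% of all genes. The smallest p was that of Ndufb9, with 126, 113 and 136 CPM in control males V14, V16 and V24 and 117, 115 and 109 in nPM males V13, V15 and V23. Its log2 fold change was -0.21 (SE 0.067, edgeR's adjusted p = 0.962), and the groups overlapped. Ndufb8 and Ndufb4 followed, and Cox6b2 (0.32, SE 0.34), Atp5g2 (0.05) and Ndufa4l2 (0.16) were the 3 with positive values.

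The value for males rested on few libraries. The median was -0.07 without V24, the control male with the highest level of these genes, and -0.17 without V23, and it was -0.06 with RNA integrity (RIN) left out of the fit. On lane 2 (2 against 2) the median levels of nPM and control males differed by 0.0051, and on lane 3 (V23 against V24) by -0.21. TEC genes took 0.264 to 0.363% of counts in nPM males and 0.224 to 0.338% in control males, with V23 highest and V24 lowest, so that the library with the most subunit expression had the least TEC. Markers of 2 neighbouring regions also moved. The 8 striatum markers were all higher in nPM males (median log2 fold change 0.55, summed level 273 to 314 CPM against 107 to 262), and the 7 choroid plexus markers likewise (0.74, 237 to 411 against 32.6 to 380), while 8 of 8 microglial markers were lower (-0.22, 227 to 267 against 193 to 313). The choroid plexus sum of 32.6 was that of 1 control male, V14, while control males V16 and V24 stood at 380 and 311, within the nPM range. The striatum sum of 107 was also that of V14, with V16 and V24 at 227 and 262. The microglial sum of 313 was that of V24, with V14 and V16 at 229 and 193. The summed projection neuron markers, lower in nPM females, were 946 to 1051 CPM in nPM males against 1043 to 1165 in control males, with overlap. No marker of these lists was called by edgeR in males or was at 0 in a male cortex library. The part of these lists in the result was not tested.

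**Figure D4:**
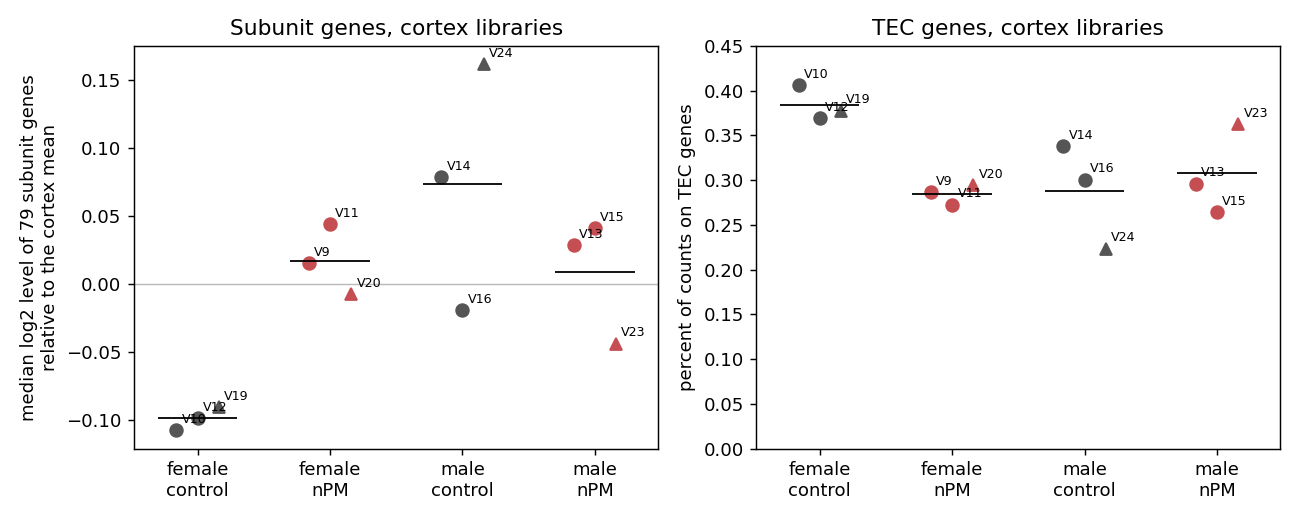
Left, median log2(CPM + 0.5) of the 79 subunit genes with a mean over 1 TMM-scaled CPM in each cortex library relative to the mean of the 12 libraries. Right, percent of counts on TEC genes. Circles are libraries of lane 2 and triangles of lane 3, and lines are means of 3. The 3 control females are the lowest for the subunit genes (-0.11 to -0.09) and the control male V24 is the highest (0.16).

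The sexes were compared directly by the exposure-by-sex term. For 78 of 83 genes the nPM effect was lower in males, with a median difference of -0.21 on the log2 scale (all genes -0.0018). None had an adjusted p under 0.05 by edgeR, as did 0% of all 20857 genes, and DESeq2 called 1. Shares over all genes are not given here for DESeq2 or for the altered fits named below. At an unadjusted p under 0.005 there were 10 genes, all lower in males, 12% against 0.604% of all genes, and at an unadjusted p under 0.05 there were 42, 50.6% against 4.68%. The term was -0.35 (SE 0.082, edgeR's adjusted p = 0.304) for Cox7a2 and -0.36 (SE 0.086, edgeR's adjusted p = 0.304) for Atp5e, the epsilon subunit of the ATP synthase stalk. For Ndufa5 it was -0.38 (SE 0.090, edgeR's adjusted p = 0.304). Cox8a, Ndufb2 and Atp5g2 led the genes with positive terms. The complex medians again lay close together, from -0.17 in complex III to -0.24 in complex I. The count of 10 ranged from 5 to 24 as libraries were left out in turn, with 24 without V16, 6 without V9, V10 or V12 and 5 without V11, V14, V19 or V24, and was 2 with TEC percent as a covariate, where the median was -0.10.

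**Figure D5:**
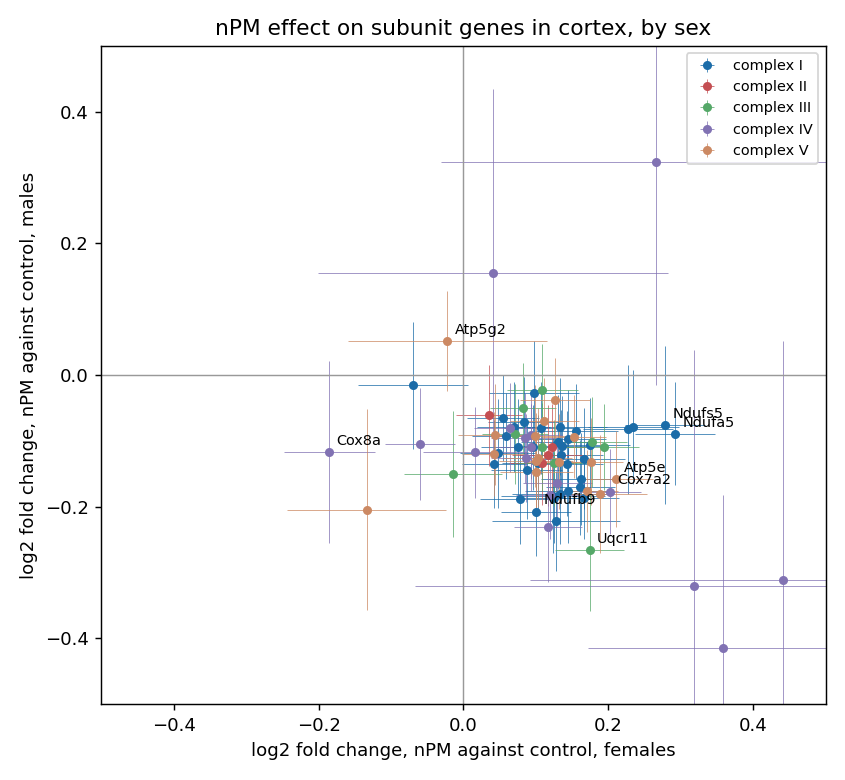
log2 fold change of nPM against control in females (horizontal) and males (vertical) for the subunit genes, with SE bars, colored by complex. The axes end at 0.5, and Cox7b2 lies outside them. Most points sit to the right of and below the origin, around 0.12 and -0.12.

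Other genes of mitochondrial energy metabolism did not all share this pattern. The 13 protein genes of the mitochondrial genome, which supply the remaining subunits of complexes I, III, IV and V, had lower values in nPM females for 9 of 13 (median log2 fold change -0.14) and a median of -0.0023 in nPM males, with none called in either. They fell into 2 sets, described after their values were seen. For mt-Co2, mt-Co3, mt-Atp6, mt-Atp8, mt-Nd3 and mt-Nd4l the highest cortex library exceeded the lowest by 106 to 541 times, with mt-Co2 at 21.7 CPM in V19 and 2292 in V12, both control females. Each of these genes was highest in V12, and each is among the 9 with lower values in nPM females. Their log2 fold changes ran from -2.25 (mt-Nd3) to -1.73 (mt-Nd4l) in females and from 0.81 (mt-Atp6) to 3.15 (mt-Co2) in males. For the other 7 the highest library was 1.17 to 1.38 times the lowest, and the values ran from -0.14 (mt-Nd4) to 0.17 (mt-Nd6) in females and from -0.07 (mt-Nd5) to -0.0023 (mt-Co1) in males. In females mt-Nd1, mt-Nd2, mt-Nd6 and mt-Cytb lay above 0 and mt-Nd4, mt-Nd5 and mt-Co1 below 0, while in males all 7 lay below 0. Of 46 assembly factors tested, 36 had higher values in nPM females (median 0.05) and 31 lower values in nPM males (-0.03). Of 16 genes of the tricarboxylic acid cycle, 12 had higher values in nPM females (0.04) and 15 lower values in nPM males (-0.09). Of 19 glycolytic genes, 12 had higher values in nPM females (0.03), with 1 called lower by edgeR (Pfkp, a phosphofructokinase, at -0.31, named after its value was seen), and 18 lower values in nPM males (-0.12). For regulators of mitochondrial biogenesis, among them Nrf1, Gabpa, Yy1 and Tfam, 6 of 15 had higher values in nPM females and 8 of 15 in nPM males, with medians of -0.03 and 0.01. In males none of these lists held a gene at an adjusted p under 0.05.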

How the data were processed

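RNA of 24 libraries (12 cortex, 12 blood) was depleted of ribosomal RNA and sequenced. The authors aligned reads to mm10 with HISAT2 after FastQC and Trimmomatic, and obtained gene counts against Gencode M11 from featureCounts 1.5.0-p3. The deposited values are raw counts per gene, without normalization. The deposited gene table also holds a mean RPKM per gene made by the authors from counts, gene length and library total, which was not used. Strandedness was not given in the sources used here.

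Library totals ran from 13595647 to 33804371. Precision at low counts is set by these totals, and the limit for a count of 0 was 3 counts, which covers counting error only. The methods leave out 1 blood library without naming it, and V2 was left out here because it stood apart. Levels are counts per kilobase of the table's gene length per 1000000 counts. Differences were tested two-sided with edgeR 4.0.16 (quasi-likelihood F test, TMM factors, no gene at 0 in a library of that fit, Benjamini-Hochberg adjustment over all genes) in R 4.3.3. Exposure was fitted with sex and RIN in each tissue, with RIN within 1 sex, and with an exposure-by-sex term in cortex. Tissues were fitted with exposure and sex. The cutoffs were an adjusted p of 0.05 and an unadjusted p of 0.005. The SE of a log2 fold change was taken from the F statistic. The fits were also run on simulated data, with 200 genes changed by a log2 value of 1 in either direction. Genes were drawn independently there, so smaller changes in genes that shift together were not tested. The 3 neonates of a sex and exposure came from different litters, so the spread is between animals, but animals of the 2 sexes may share litters. The tissue fit treats cortex and blood as independent although they came from the same animals.

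Alternatives were limma voom 3.58.1, DESeq2 1.42.0, RLE factors, filters of at least 1 count in any or 10 in every library, no RIN, a lane term, all blood libraries, control libraries only, no globin genes, plain counts in place of counts per kilobase, and each library left out in turn. TEC percent as a covariate, library totals in the exposure fits and principal transcript lengths (Gencode M21) were added after seeing the data. The genes named are those with an adjusted p under 0.05 (at most 10 in each direction), otherwise the 3 with the smallest p in each direction, with the paralog sets and the extremes of level. Names outside this rule (the genes at an unadjusted p under 0.005 and those without overlap in males) were chosen after their values were seen. The genes and lists were chosen with earlier results of these data known. Protein sequences were not used here.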

Additional observations from a re-analysis of the deposited data

Results flagged for a closer look

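In 10 genes of cortex the nPM effect differed between the sexes at an unadjusted p under 0.005 in the exposure-by-sex term of edgeR, in each case lower in males, while no adjusted p was under 0.05. The log2 difference was -0.42 for Uqcr11, -0.39 for Atp5k, -0.38 for Ndufa5, -0.36 for Atp5e, -0.35 for Cox7a2, -0.32 for Ndufb8, -0.31 for Atp5j2, -0.30 for Ndufb11, -0.30 for Ndufa1 and -0.29 for Uqcrb.

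Among 152 groups of 5 or 6 libraries of 1 gene, 7 held a library far from the others by Dixon's test, where chance flags about 1 in 20. In TMM-scaled CPM, the nPM cortex library V15 stood highest for Ndufb5 at 87.6 (nearest 82.2), V9 lowest for Ndufa4l2 at 1.33 (nearest 1.91), V23 lowest for Atp5h at 118 (nearest 128) and V23 highest for Ndufa1 at 51.4 (nearest 48.2). In blood, nPM library V3 was highest for Sdhb at 2.36 (nearest 1.48), control V4 lowest for Atp5l at 25.2 (nearest 51.2) and control V17 highest for Ndufb8 at 4.44 (nearest 2.24).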

How the results depend on the processing

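No paired analysis was possible because the groups share no replicate numbers in the labels and no label ties a blood library to the cortex library of the same animal. In every exposure fit the sign of the median over the subunit genes was kept by limma voom, DESeq2 and RLE factors. With TEC percent added the cortex median of both sexes was -0.024. The cause of the changes below was not tested, and shares over all genes are not given for the counts of calls.

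In female cortex the calls at an adjusted p under 0.05 numbered 13 with genes of at least 1 count in any library and 0 with TEC percent added, where 3 genes had an unadjusted p under 0.005 and Ndufa5 was at -0.10. With 1 library left out they numbered 0 to 3, and those at an unadjusted p under 0.005 4 to 9. TEC percent split the female groups without overlap, so the fit with it separates exposure from TEC percent poorly. In male cortex the median was -0.062 without RIN, 2 genes had an unadjusted p under 0.005 with the looser filter and 0 to 2 with 1 library left out, where Ndufa4l2 ran from -0.020 (without V14) to 0.42 and Atp5g2 from -0.082 (without V23) to 0.11. With both sexes the leave-one-out count was 0 to 1. In the exposure-by-sex term, 4 genes were called with the looser filter and 1 by DESeq2, 2 had an unadjusted p under 0.005 with TEC percent added (median -0.10), and leaving out 1 library gave 5 to 24, with Atp5g2 from -0.026 (without V20) to 0.28.

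The tissue median was 1.299 with at least 10 counts in every library and 4.78 with library totals, where Atp5l was at 1.26, Uqcrh 1.53, Ndufa3 1.69, Ndufa1 1.78, Atp5h 1.86, Cox7b 1.89, Atp5b 1.91, Cox6c 2.05 and Ndufb11 2.54.

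Plain counts in place of counts per kilobase changed cortex shares to 43.9% for Atp5g3, 39.6% for Atp5g1, 15.7% for Atp5g2, 0.232% for Cox4i2, 0.359% for Cox6b2, 0.258% for Cox7a1, 49.1% for Cox7a2l, 0.144% for Cox7b2 and 0.851% for Ndufa4l2, and blood shares to 22.4% for Atp5g1, 36.2% for Atp5g2 and 41.5% for Cox6b2. The complexes I to V then took 25.5, 5.01, 10.7, 21.6 and 37.1% in cortex and 13.9, 1.08, 9.69, 26.9 and 48.1% in blood. Under principal transcript lengths the cortex shares were 66.7% for Atp5g3, 9.08% for Atp5g1, 0.242% for Cox4i2, 0.379% for Cox6b2, 37.0% for Cox7a2l and 0.557% for Ndufa4l2, and the blood shares 53.9% for Atp5g3, 4.25% for Atp5g1 and 42.8% for Cox6b2. Complexes I, II, III and V then took 25.5, 2.61, 11.8 and 29.0% in cortex, and complexes I and III 16.4 and 12.4% in blood. With most counts on globin, blood values of the lowest genes rest on few reads.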
